A study of Mus musculus with 18 samples.

Results

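Of the 21640 probesets that carry 1 gene symbol on the array, 150 probesets of 149 genes were lower at ‘peak’ than at ‘trough’ blood pressure (BP) in both Schlager strains, hypertensive BPH/2J and normotensive BPN/3J. A probeset was a member if, in each strain, its highest ‘peak’ mouse lay below its lowest ‘trough’ mouse. Probesets of *Lcn2*, *Arc*, *Fos*, *Egr3* and of symbols that start with a fixed set of letters (Kdm, Setd, Kmt, Chd, Smarc, Arid, Hdac, Kcn, Zfp, Pcdh, Hnrnp, Srsf, Sfrs, Snord and Snora) were left out. In all, 682 probesets (3.15%) met the condition and 655 remained after these exclusions, of which the 150 with the largest mean fall over both strains were kept. The fall is the ‘trough’ mean minus the ‘peak’ mean on the log2 scale. The members were thus chosen by these measured differences between the times, so the falls are described and not tested. The last members were *Adcy5* (mean fall 0.5169) and *Atn1* (0.5149), and the next probesets outside were *Igdcc4* (0.5139) and *R3hdm2* (0.5126). In the opposite direction 1260 probesets (5.82%) met the mirrored condition, or 1190 after the same exclusions.

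The study compared the hypothalamus of the strains at the time of day when their BP differs most (‘peak’, active period) and when it differs less (‘trough’, inactive period). Each of 18 arrays held the RNA of 1 male mouse, without pooling, on the Affymetrix Mouse Gene 1.0 ST array. At ‘peak’ there were 6 BPH/2J and 6 BPN/3J mice aged 26 weeks, and at ‘trough’ 3 BPH/2J and 3 BPN/3J mice, aged 18 weeks by the sample labels and 19 weeks by the description of the series. Age and time of day therefore changed together, and their parts in any difference between the times cannot be told apart. The labels name no transgene, deletion or treatment. Both strains are inbred, so mice of a strain share 1 genome. The labels name the whole hypothalamus, while the methods of the study describe dissected nuclei. For the BPN/3J ‘trough’ mice other labels of the samples give the strain as BPH/2J, and the sample titles were followed. At 128 probesets that separated the strains at ‘peak’ by over 1 log2 unit, the BPN/3J ‘trough’ mice lay on the BPN/3J side at 66.4 to 78.9%, and the BPH/2J ‘trough’ mice on theirs at 84.4 to 93.8%.

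All values are log2 signals as the authors normalized them by RMA. The median over all 34760 probesets ran from 6.17 to 6.42 over the arrays and was highest in BPN/3J ‘trough’ mouse 1. Arrays give no read counts, and the precision is limited by the number of mice. Of 13 hypothalamic marker genes 8 had a signal above the median of all probesets with 1 symbol, with *Pmch* at the 99.6th percentile, *Oxt* at the 87.0th and *Hcrt* at the 86.2nd, while *Crh* was at the 38.4th and *Nkx2-1* at the 41.0th.

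The hypothalamus sets sympathetic drive, hormone release and the daily cycle of rest and activity. Its neurons receive axons from much of the brain, and oligodendrocytes wrap those axons in myelin, while the cells of small vessels supply it with blood. The members come from many of these compartments, among them myelin, the postsynaptic density, axon guidance, ion channels, the vessel wall and the regulators of small GTPases, the switches that organise the cytoskeleton and membrane traffic. A smaller group is made of genes usually known from other tissues, such as hair keratins and olfactory receptors, and of genes of microRNAs, short RNAs that pair through bases 2 to 8 (the seed) with messenger RNAs and lower their output.

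The 5 microRNA genes among the members are shown first, since their sequences are the part that acts on other transcripts. The probesets read the region of the gene and not the mature product alone. The RefSeq table (GRCm38.p6) held 8 mature sequences of these genes. It held no product of the 5′ arm of *Mir150* and none of the 3′ arm of *Mir301b*. Those products are therefore neither shown nor compared by seed. They are given 5′ to 3′ with the seed in capitals.
mmu-miR-301b-5p: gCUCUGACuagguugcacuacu
mmu-miR-200c-5p: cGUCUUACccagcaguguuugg
mmu-miR-200c-3p: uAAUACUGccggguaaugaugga
mmu-miR-141-5p: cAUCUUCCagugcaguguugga
mmu-miR-141-3p: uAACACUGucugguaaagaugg
mmu-miR-17-5p: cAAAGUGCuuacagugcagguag
mmu-miR-17-3p: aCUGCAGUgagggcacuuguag
mmu-miR-150-3p: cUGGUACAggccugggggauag

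The 8 seeds are all different, so no seed was shared among the listed products. *Mir141* and *Mir200c* are neighbours on chromosome 6, with 336 bases between their hairpins. The hairpins are shown for this pair, with the mature arms in capitals, because the genes lie so close together. Each gene has its own probeset, and the hairpins do not overlap. The *Mir141* hairpin lies on the minus strand at chr6:124717914-124717985 and the *Mir200c* hairpin on the minus strand at chr6:124718322-124718390.
Mir141 hairpin: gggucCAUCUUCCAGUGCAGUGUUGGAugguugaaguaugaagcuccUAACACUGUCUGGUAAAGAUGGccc
Mir200c hairpin: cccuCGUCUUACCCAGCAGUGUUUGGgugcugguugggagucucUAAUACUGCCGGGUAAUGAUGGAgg

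Over the 150 members the median fall came to 0.61 in BPH/2J and to 0.58 in BPN/3J, or 1.53-fold and 1.5-fold. The falls ran from 0.22 to 1.07 in BPH/2J and from 0.41 to 2.09 in BPN/3J. Over all 34760 probesets the median difference between ‘peak’ and ‘trough’ came to -0.02 in BPH/2J and to -0.01 in BPN/3J. Of the members 122 were lower at an adjusted p under 0.05 in BPH/2J and 148 in BPN/3J (limma with Benjamini-Hochberg adjustment), beside 4.39% and 12.4% of all probesets, and nothing is read from these counts because the condition used the same contrast. The gap is that between the lowest ‘trough’ and the highest ‘peak’ mouse of a strain. In 43 of the 150 members it was wider, in each strain, than the SDs of both groups of that strain. The median gap in BPH/2J was 0.33, and that in BPN/3J 0.18.

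**Figure D1:**
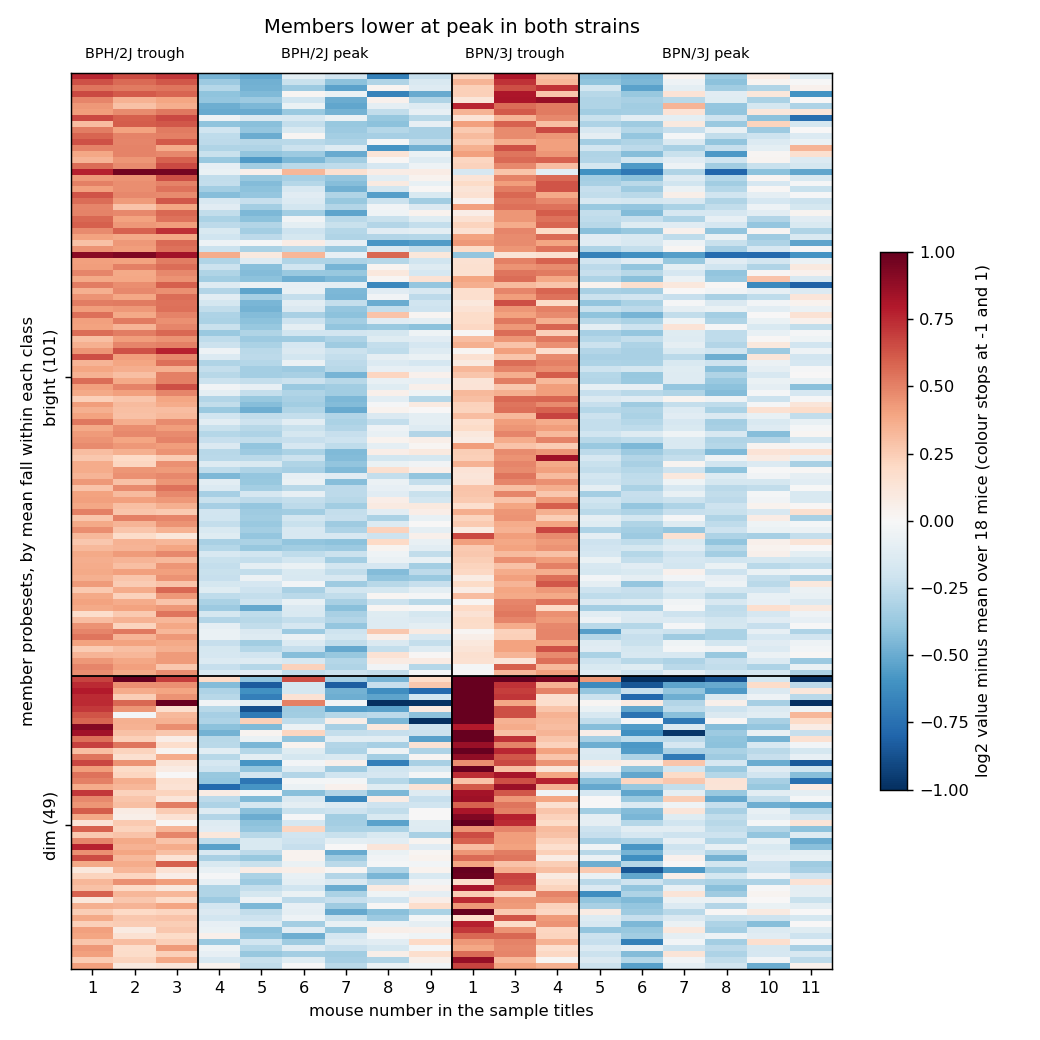
Log2 value of each of the 150 members (rows) in each of the 18 mice (columns), minus the mean of that member over the mice, with 101 bright members above the line and 49 dim members below it. Every ‘trough’ mouse is above every ‘peak’ mouse of its strain by construction, and BPN/3J ‘trough’ mouse 1 is paler than the other ‘trough’ mice for the bright members and darker for the dim ones.

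The members fell into 101 bright and 49 dim probesets, above and below 7.01, the median signal of all probesets with 1 symbol. In the bright members the median fall came to 0.64 in BPH/2J and to 0.55 in BPN/3J, and the fall was larger in BPH/2J for 80 of 101. The dim members had median falls of 0.53 in BPH/2J and 0.73 in BPN/3J, and theirs was larger in BPN/3J for 44 of 49. The direction within each class held under quantile normalization (59 of 101 and 46 of 49) and under median centring (92 of 101 and 42 of 49). Without BPN/3J ‘trough’ mouse 1, whose array had the highest median, it was 55 of 101 and 32 of 49. The bright medians were then 0.64 in BPH/2J and 0.63 in BPN/3J, and under quantile normalization 0.68 and 0.66. All probesets with 1 symbol were also cut into 5 equal groups by signal. From dim to bright their median ‘peak’ minus ‘trough’ was -0.02, -0.07, -0.04, 0.001 and 0.05 in BPH/2J. In BPN/3J it was -0.13, -0.24, -0.02, 0.11 and 0.12, so the split by signal was not particular to the members. Over all 34760 probesets 0 (0%) passed the limma test of a difference between the 2 falls, and 2890 (8.31%) had an unadjusted p under 0.05.

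The same mouse stood apart in the level of the members. Relative to the mean of each probeset over the 18 mice, the bright members lay at 0.44, 0.42 and 0.48 in the BPH/2J ‘trough’ mice 1, 2 and 3, and at 0.21, 0.45 and 0.45 in the BPN/3J ‘trough’ mice 1, 3 and 4. The dim members lay at 0.49, 0.31 and 0.28 in the former and at 0.84, 0.54 and 0.29 in the latter. BPN/3J ‘trough’ mouse 1 was thus the lowest of the ‘trough’ mice for the bright members and the highest for the dim members. This held for other probesets as well, since those that were not members lay at -0.20 (bright) and 0.17 (dim) in this mouse, the lowest and the highest of all mice. In the ‘peak’ mice the bright members ran from -0.31 to -0.12 in BPH/2J (median -0.21) and from -0.28 to -0.11 in BPN/3J (median -0.18). The dim members ran from -0.32 to -0.11 (median -0.22) and from -0.42 to -0.18 (median -0.21). The strains overlapped at ‘peak’ in both classes. The part of this array in the falls was not tested beyond leaving it out.

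**Figure D2:**
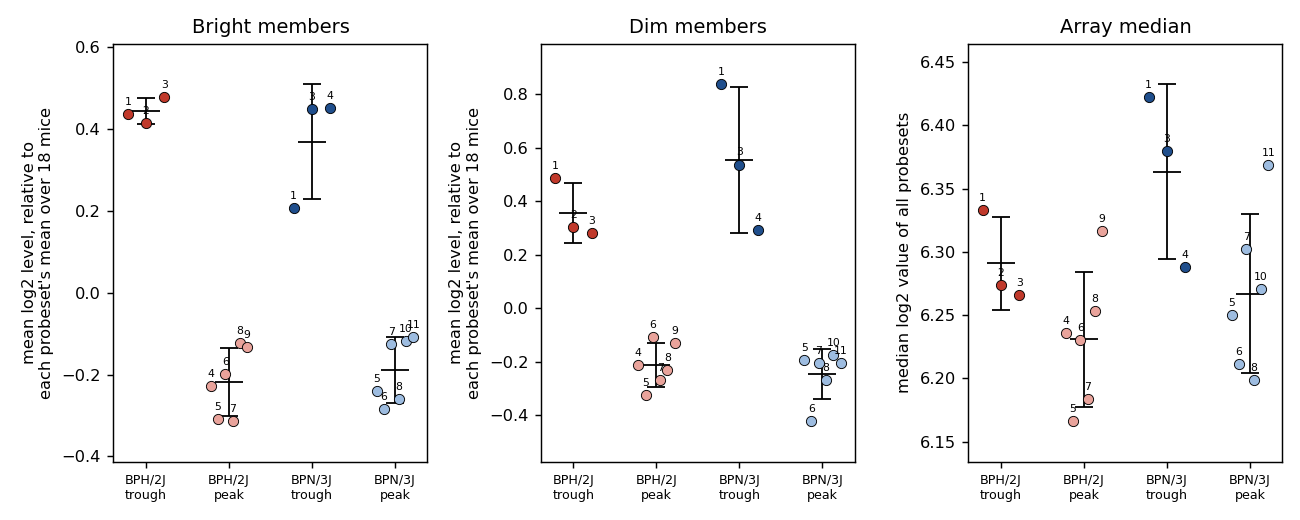
Mean log2 level of the bright and the dim members, relative to the mean of each probeset over 18 mice, and the median log2 value of the array, for every mouse (points, with the mouse number) in the 4 groups, with the group mean and SD as black bars. BPN/3J ‘trough’ mouse 1 lies at 0.21 for the bright members, at 0.84 for the dim members and has the highest array median, 6.42.

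**Figure D3:**
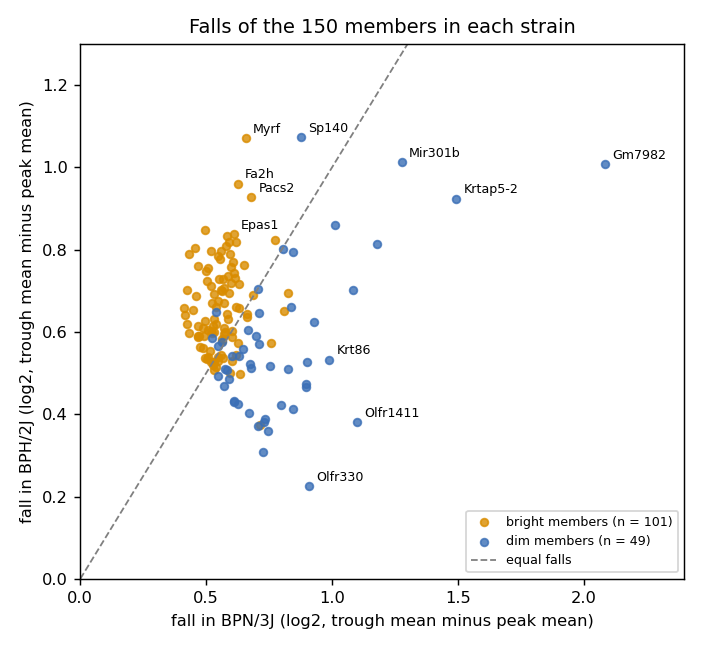
Fall of each of the 150 members in BPN/3J (horizontal, log2) and in BPH/2J (vertical, log2), with the dashed line at equal falls. Most bright members lie above the line (80 of 101) and most dim members below it (44 of 49).

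In the values by mouse that follow, the ‘trough’ mice are given in the order of their numbers, 1, 2 and 3 for BPH/2J and 1, 3 and 4 for BPN/3J, and the 6 ‘peak’ mice by their lowest and highest value and median. All are log2 signals, which do not compare one gene with another.

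Genes known from oligodendrocytes and myelin gave 6 members, with a median fall of 0.80 in BPH/2J and 0.57 in BPN/3J. The groups of members by role were put together after the values were seen, so they order the text and are not compared with each other. *Myrf* encodes the membrane-bound factor that switches on myelin genes, and it measured 8.97, 8.87 and 8.93 at ‘trough’ and 7.54 to 8.11 (median 7.87) at ‘peak’ in BPH/2J, and 8.44, 9.02 and 8.52 at ‘trough’ and 7.75 to 8.30 (median 7.97) at ‘peak’ in BPN/3J. Its falls were 1.07 and 0.66, and the nearest mice of different times were 0.15 apart in BPN/3J. For *Fa2h*, which makes the hydroxylated fatty acids of myelin lipids, the values were 8.80, 8.75 and 8.72 at ‘trough’ and 7.47 to 8.16 (median 7.72) at ‘peak’ in BPH/2J, and 8.37, 8.94 and 8.42 at ‘trough’ and 7.54 to 8.28 (median 7.94) at ‘peak’ in BPN/3J. The other 4 were *Daam2* (0.81 and 0.46), *Inpp5j*, an inositol phosphate phosphatase (0.79 and 0.43), *Abca2*, a lipid transporter (0.71 and 0.52), and the kinase gene *Aatk* (0.69 and 0.68). Falls are given in this order, BPH/2J and then BPN/3J, throughout. The fall was larger in BPH/2J for 5 of these 6 under quantile normalization, for 6 under median centring and for 5 without BPN/3J ‘trough’ mouse 1.

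Markers of mature oligodendrocytes were counted beside these members. Of 9 such markers 0 passed in BPH/2J, and 1 was higher and 0 lower in BPN/3J, with median differences of -0.21 and -0.05. The mean level of the 9 markers in BPH/2J was 10.37 to 10.44 at ‘trough’ and 9.89 to 10.41 at ‘peak’. In BPN/3J it was 9.96 to 10.37 and 9.92 to 10.43. Of 6 markers of oligodendrocyte precursors 2 were lower in each strain and 0 higher. In each strain 3 were lower under quantile normalization and 1 under median centring. Their mean level in BPH/2J was 8.42 to 8.47 at ‘trough’ and 8.13 to 8.26 at ‘peak’, which did not overlap. In BPN/3J it was 8.25 to 8.51 and 7.98 to 8.28, which did. In whole tissue, fewer cells of a type and less RNA per cell cannot be told apart.

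Members of the synapse numbered 12, with a median fall of 0.61 in BPH/2J and 0.60 in BPN/3J. *Dlgap3*, a scaffold of the postsynaptic density, measured 9.58, 9.56 and 9.58 at ‘trough’ and 8.50 to 9.07 (median 8.72) at ‘peak’ in BPH/2J, and 9.28, 9.68 and 9.76 at ‘trough’ and 8.50 to 9.08 (median 8.80) at ‘peak’ in BPN/3J. Its falls were 0.82 and 0.77, and the SD was 0.01 and 0.21 in the BPH/2J ‘trough’ and ‘peak’ mice and 0.26 and 0.20 in those of BPN/3J. *Slc18a3* encodes the transporter that fills vesicles with acetylcholine and was dim, at 7.62, 7.40 and 7.08 at ‘trough’ and 6.27 to 7.01 (median 6.71) at ‘peak’ in BPH/2J, and 7.42, 7.61 and 7.40 at ‘trough’ and 6.11 to 7.23 (median 6.90) at ‘peak’ in BPN/3J. For *Cacng7*, an auxiliary subunit of AMPA receptors, the values were 10.25, 10.39 and 10.52 at ‘trough’ and 9.37 to 10.03 (median 9.89) at ‘peak’ in BPH/2J, and 10.39, 10.43 and 10.35 at ‘trough’ and 9.43 to 9.91 (median 9.77) at ‘peak’ in BPN/3J. Both genes had nearly equal falls in the strains. The others were *Unc13c*, which primes vesicles for release (0.79 and 0.59), *Ppp1r9b* (0.64 and 0.66), *Git1* (0.61 and 0.57), *Iqsec1* (0.62 and 0.54), *Srcin1* (0.58 and 0.56), *Psd* (0.50 and 0.63), *Insyn1* (0.53 and 0.60), *Agap1* (0.56 and 0.49) and the junctophilin gene *Jph3* (0.51 and 0.53). The fall was larger in BPN/3J for 6 of the 12, and for 10 under quantile normalization, 2 under median centring and 10 without BPN/3J ‘trough’ mouse 1, so no direction between the strains is given for this group.

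Markers of neurons and of neighbouring regions were counted beside the members of synapse, channels and axon guidance. Of 12 neuron markers 0 passed in BPH/2J, and 3 were lower and 1 higher in BPN/3J, with median differences of -0.14 and -0.07, and their mean level was 11.22 to 11.33 at ‘trough’ and 11.12 to 11.27 at ‘peak’ in BPH/2J, and 11.22 to 11.26 and 11.04 to 11.22 in BPN/3J. Under quantile normalization 3 of them were lower and 0 higher in BPH/2J, and 4 were lower and 0 higher in BPN/3J. Under median centring 0 were lower in either strain, and 2 were higher in BPN/3J. The 7 striatal markers had median differences of -0.26 and -0.30, with 0 passing in either strain, and the 9 markers of cortex and hippocampus of -0.15 and -0.23, with 0 passing in BPH/2J and 1 lower in BPN/3J. The mean level of the striatal markers overlapped between the times in both strains (8.38 to 9.05 and 8.14 to 9.53 in BPH/2J, 8.12 to 9.17 and 8.13 to 8.63 in BPN/3J), as did that of cortex and hippocampus (7.47 to 7.95 and 7.33 to 7.81, and 7.36 to 8.48 and 7.24 to 8.49). The part of neighbouring tissue in the members was not tested.

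The group of ion channels and transporters held 13 probesets of 12 genes, with a median fall of 0.63 in BPH/2J and 0.55 in BPN/3J. It takes in the enzyme gene *Adcy5*, which is neither. *Piezo1*, a channel opened by stretch of the membrane, was the only gene with 2 member probesets. The first of them measured 7.20, 6.63 and 6.75 at ‘trough’ and 5.84 to 6.38 (median 6.01) at ‘peak’ in BPH/2J, and 7.08, 6.65 and 6.59 at ‘trough’ and 5.72 to 6.36 (median 5.87) at ‘peak’ in BPN/3J, and the second had falls of 0.56 and 0.65. *Cacna1i* encodes a T-type calcium channel of neurons, and its values were 8.53, 8.58 and 8.67 at ‘trough’ and 7.64 to 8.13 (median 7.86) at ‘peak’ in BPH/2J, and 8.25, 8.63 and 8.75 at ‘trough’ and 7.77 to 8.13 (median 7.89) at ‘peak’ in BPN/3J. *Cacna2d2*, an auxiliary subunit of calcium channels, measured 9.39, 9.62 and 9.60 at ‘trough’ and 8.76 to 9.04 (median 8.89) at ‘peak’ in BPH/2J, and 9.33, 9.56 and 9.36 at ‘trough’ and 8.79 to 9.19 (median 8.97) at ‘peak’ in BPN/3J. In BPN/3J the gaps of these 2 calcium channel genes between the nearest mice of different times were 0.12 and 0.15, below the SD of the BPN/3J ‘trough’ mice for *Cacna1i* (0.26) and of the BPN/3J ‘peak’ mice for *Cacna2d2* (0.16). *Slc6a8*, the creatine transporter, was at 8.52, 8.48 and 8.46 at ‘trough’ and 7.64 to 8.06 (median 7.89) at ‘peak’ in BPH/2J, and 8.46, 8.33 and 8.30 at ‘trough’ and 7.60 to 8.07 (median 7.82) at ‘peak’ in BPN/3J. Of the remaining transporters *Slc47a2*, which exports organic cations, measured 6.13, 5.80 and 5.59 at ‘trough’ and 5.21 to 5.56 (median 5.39) at ‘peak’ in BPH/2J, and 6.33, 6.41 and 5.98 at ‘trough’ and 5.06 to 5.77 (median 5.33) at ‘peak’ in BPN/3J, with a ‘trough’ mouse only 0.03 above a ‘peak’ mouse in BPH/2J. *Slc12a7*, a potassium-chloride cotransporter, measured 6.71, 6.45 and 6.70 at ‘trough’ and 5.99 to 6.25 (median 6.13) at ‘peak’ in BPH/2J, and 6.66, 6.75 and 6.44 at ‘trough’ and 5.94 to 6.19 (median 6.08) at ‘peak’ in BPN/3J. The others were *Hcn2*, a pacemaker channel (0.80 and 0.52), *Atp2b2*, a calcium pump of the plasma membrane (0.73 and 0.55), *Panx2* (0.66 and 0.62), *Tmem94* (0.63 and 0.53), *Spns3* (0.38 and 0.73) and *Adcy5*, an adenylyl cyclase (0.54 and 0.50).

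Of the 35 genes of voltage-gated calcium and sodium channels, 3 were members. In the limma test over all probesets 7 of the 35 were lower and 1 higher in BPH/2J, and 10 were lower and 2 higher in BPN/3J. Here and for the other lists the counts take in any member genes, which were chosen for their falls. The counts of lower genes are thus not independent of the choice. The BPN/3J counts were 7 and 0 under quantile normalization, 5 and 3 under median centring, and 6 and 0 without BPN/3J ‘trough’ mouse 1. Counted by the brightest probeset of each of 19937 genes, 5.61% were lower and 4.63% higher in BPH/2J, and 14.7% were lower and 13.9% higher in BPN/3J. Of 378 solute carrier genes 23 were lower and 10 higher in BPH/2J, and 75 lower and 42 higher in BPN/3J. The BPN/3J counts were 74 and 31 under quantile normalization, 39 and 53 under median centring, and 24 and 21 without that mouse.

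The vessel wall and the extracellular matrix gave 10 members, with a median fall of 0.61 in either strain. *Col1a1*, a chain of type I collagen, measured 7.68, 7.54 and 7.61 at ‘trough’ and 6.73 to 7.19 (median 6.96) at ‘peak’ in BPH/2J, and 8.01, 7.81 and 7.77 at ‘trough’ and 6.87 to 7.59 (median 6.95) at ‘peak’ in BPN/3J. *Epas1* encodes a hypoxia-inducible factor of endothelium and was at 9.72, 9.78 and 9.83 at ‘trough’ and 8.80 to 9.22 (median 8.88) at ‘peak’ in BPH/2J, and 9.64, 9.91 and 9.82 at ‘trough’ and 8.90 to 9.44 (median 9.19) at ‘peak’ in BPN/3J. *Notch1*, a receptor that also patterns vessels, measured 8.52, 8.44 and 8.45 at ‘trough’ and 7.44 to 7.96 (median 7.61) at ‘peak’ in BPH/2J, and 8.26, 8.41 and 8.38 at ‘trough’ and 7.56 to 7.92 (median 7.77) at ‘peak’ in BPN/3J. For *Epas1* and *Notch1* the fall was larger in BPH/2J, and for *Col1a1* it was larger in BPN/3J. The others were *Eng*, a coreceptor for transforming growth factor beta in endothelium (0.77 and 0.60), the secreted *Scube1* (0.65 and 0.71), the integrins *Itga5* (0.54 and 0.63) and *Itga9* (0.56 and 0.55), the scavenger receptor *Stab1* (0.58 and 0.56), *Hspg2*, the heparan sulfate proteoglycan perlecan (0.51 and 0.58), and elastin, *Eln* (0.40 and 0.67).

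Markers of vessel cells were lower in part as well. Of 10 pericyte and smooth muscle markers 4 were lower and 0 higher in BPH/2J, and 3 lower and 1 higher in BPN/3J. Of 9 endothelial markers 2 were lower and 0 higher in BPH/2J, and 1 lower and 1 higher in BPN/3J. Under median centring 2 pericyte and smooth muscle markers were lower in each strain, and 1 endothelial marker in BPH/2J and 0 in BPN/3J. Under quantile normalization it was 3 in each strain for the former and 2 in each for the latter. Without BPN/3J ‘trough’ mouse 1 the BPN/3J counts of lower markers were 2 and 0. The mean level of the pericyte and smooth muscle markers ran from 7.54 to 7.73 at ‘trough’ and from 7.07 to 7.45 at ‘peak’ in BPH/2J, which did not overlap, and from 7.25 to 7.49 and from 6.99 to 7.60 in BPN/3J, which did. That of the endothelial markers ran from 8.30 to 8.37 and from 8.01 to 8.22 in BPH/2J, and from 7.96 to 8.07 and from 7.89 to 8.26 in BPN/3J. For the 8 meningeal fibroblast markers, which include *Col1a1*, it ran from 6.96 to 7.30 and from 6.36 to 7.41 in BPH/2J, and from 6.93 to 7.05 and from 6.12 to 7.70 in BPN/3J, with 2 lower and 0 higher in each strain. Of 100 genes of collagens and matrix 12 were lower in BPH/2J and 33 in BPN/3J, with 0 higher in either. Under median centring 8 were lower in BPH/2J and 19 in BPN/3J, and without BPN/3J ‘trough’ mouse 1 there were 8 in BPN/3J. The part of cell composition in these members was not tested.

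The group of regulators of small GTPases held 12 members, all bright, with a median fall of 0.65 in BPH/2J and 0.56 in BPN/3J. It takes in the adaptor subunit gene *Ap2a1*, which is not such a regulator. *Arhgef10*, an exchange factor for small GTPases, measured 9.20, 9.38 and 9.38 at ‘trough’ and 8.35 to 8.75 (median 8.49) at ‘peak’ in BPH/2J, and 8.25, 8.69 and 8.31 at ‘trough’ and 7.62 to 8.11 (median 7.86) at ‘peak’ in BPN/3J. *Rab11fip3*, which binds the recycling protein Rab11, measured 9.09, 9.05 and 9.18 at ‘trough’ and 8.27 to 8.50 (median 8.38) at ‘peak’ in BPH/2J, and 8.83, 9.08 and 9.18 at ‘trough’ and 8.31 to 8.66 (median 8.44) at ‘peak’ in BPN/3J. In *Rab11fip3* the values of the strains overlapped at both times, while in *Arhgef10* they did not. The others were *Prex1*, an activator of Rac (0.81 and 0.58), *Arfgef2*, an activator of Arf proteins (0.76 and 0.60), *Arhgap23* (0.76 and 0.47), *Sbf1* (0.67 and 0.57), *Arhgap31* (0.63 and 0.58), *Ap2a1* (0.60 and 0.53), *Bcr* (0.59 and 0.47), *Dock6* (0.54 and 0.56), *Rapgef1* (0.54 and 0.51) and *Sgsm2* (0.53 and 0.52). The fall was larger in BPH/2J for 11 of the 12, for 8 under quantile normalization and 12 under median centring, and for 6 without BPN/3J ‘trough’ mouse 1. Of the GTPases themselves (111 genes, a list that took in *Rab11fip3* by its symbol), 4 were lower and 13 higher in BPH/2J, and 7 lower and 29 higher in BPN/3J, or 4 and 17 without that mouse.

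Axon guidance and cell adhesion gave 14 members, with a median fall of 0.62 in BPH/2J and 0.56 in BPN/3J. The plexin genes, receptors for semaphorins, were *Plxna1* (0.70 and 0.56), *Plxna4* (0.75 and 0.50) and *Plxnb1* (0.66 and 0.54), and *Sema4d*, a ligand of plexin B1, was a member as well (0.60 and 0.52). *Unc5a*, a netrin receptor, had falls of 0.54 and 0.62. The others were the cadherin *Celsr2* (0.78 and 0.55), the sorting receptor *Sorl1* (0.70 and 0.56), the adhesion receptors *Adgrg1* (0.60 and 0.60) and *Adgrb2* (0.54 and 0.57), the engulfment receptor *Megf10* (0.70 and 0.42), *Lrp4* (0.60 and 0.52), contactin 2, *Cntn2* (0.64 and 0.41), and the dim *Lrrc32* (0.52 and 0.68) and *Ror2* (0.43 and 0.61). All 12 members of the cytoskeleton were bright. *Ank1*, an ankyrin that ties membrane proteins to spectrin, measured 8.68, 8.98 and 9.0 at ‘trough’ and 7.96 to 8.29 (median 7.98) at ‘peak’ in BPH/2J, and 8.78, 8.97 and 8.67 at ‘trough’ and 8.0 to 8.60 (median 8.13) at ‘peak’ in BPN/3J. The others ran from 0.53 to 0.74 in BPH/2J and from 0.42 to 0.61 in BPN/3J and were the tau kinase *Ttbk1*, the myosins *Myh9* and *Myo18a*, the dynactin subunit *Dctn1*, *Tubgcp6* of the gamma-tubulin complex, and *Clip2*, *Ppp1r12c*, *Mapk8ip3*, *Plekhm2*, *Speg* and *Cep170b*.

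Transcription and RNA formed the largest group, with 22 members and a median fall of 0.63 in BPH/2J and 0.55 in BPN/3J. *Sp140*, a nuclear body protein of lymphoid cells, was dim and measured 6.82, 6.65 and 7.07 at ‘trough’ and 4.91 to 6.59 (median 6.01) at ‘peak’ in BPH/2J, and 7.12, 6.46 and 6.25 at ‘trough’ and 4.49 to 6.17 (median 5.94) at ‘peak’ in BPN/3J. The SD of its ‘peak’ mice was 0.64 in each strain, and the gaps between the nearest mice of different times were 0.07 and 0.08. *Sinhcaf*, a subunit of the SIN3 histone deacetylase complex, measured 7.51, 7.29 and 7.27 at ‘trough’ and 5.46 to 7.17 (median 6.65) at ‘peak’ in BPH/2J, and 8.25, 7.27 and 7.25 at ‘trough’ and 6.21 to 7.12 (median 6.80) at ‘peak’ in BPN/3J. In bright genes the spread was smaller. *Med13l*, a subunit of the Mediator complex, measured 9.03, 8.93 and 9.04 at ‘trough’ and 8.14 to 8.37 (median 8.22) at ‘peak’ in BPH/2J, and 8.79, 9.0 and 9.18 at ‘trough’ and 8.16 to 8.53 (median 8.33) at ‘peak’ in BPN/3J. *Foxk2*, a forkhead factor, measured 9.29, 9.28 and 9.26 at ‘trough’ and 8.59 to 8.86 (median 8.73) at ‘peak’ in BPH/2J, and 9.18, 9.39 and 9.35 at ‘trough’ and 8.69 to 8.87 (median 8.75) at ‘peak’ in BPN/3J. The others had falls from 0.37 to 0.85 in BPH/2J and from 0.41 to 0.71 in BPN/3J, and were *Prrc2b*, the kinase gene *Hipk2*, the repressor *Cic*, *Tnrc18*, *Samd4b*, the RNA-binding protein gene *Msi1*, *Pabpc1l2b*, *Nup210l*, *Ints1* of the Integrator complex, *Cbfa2t3*, *Zmiz2*, the long noncoding RNA *Hottip*, *Tulp4*, the histone demethylase gene *Phf2*, *Zc3h7b*, *Atoh8*, *Camta2* and atrophin 1, *Atn1*.

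Kinases, phosphatases and the ubiquitin system gave 9 bright members. *Fbxl16*, an F-box protein, measured 10.995, 10.85 and 10.90 at ‘trough’ and 10.01 to 10.55 (median 10.17) at ‘peak’ in BPH/2J, and 10.62, 11.32 and 11.37 at ‘trough’ and 10.18 to 10.51 (median 10.22) at ‘peak’ in BPN/3J. The ubiquitin ligase gene *Rnf157* measured 9.72, 9.84 and 9.87 at ‘trough’ and 9.05 to 9.30 (median 9.14) at ‘peak’ in BPH/2J, and 9.73, 9.86 and 9.94 at ‘trough’ and 9.13 to 9.43 (median 9.23) at ‘peak’ in BPN/3J. *Fbxo41*, a further F-box protein, measured 8.36, 8.31 and 8.51 at ‘trough’ and 7.55 to 8.23 (median 7.71) at ‘peak’ in BPH/2J, and 8.29, 8.38 and 8.62 at ‘trough’ and 7.63 to 8.02 (median 7.79) at ‘peak’ in BPN/3J. In *Fbxl16* the BPN/3J ‘trough’ mouse 1 lay well below the other two, and in *Rnf157* and *Fbxo41* the 3 BPN/3J ‘trough’ mice were closer together. The deubiquitinase gene *Usp31* measured 9.59, 9.64 and 9.63 at ‘trough’ and 8.85 to 9.08 (median 8.90) at ‘peak’ in BPH/2J, and 9.27, 9.64 and 9.48 at ‘trough’ and 8.73 to 9.18 (median 9.01) at ‘peak’ in BPN/3J. The others were *Mink1* (0.74 and 0.59), the fibroblast growth factor receptor *Fgfr1* (0.69 and 0.53), *Strn4* (0.50 and 0.59), *Pkmyt1* (0.37 and 0.71) and *Ppp2r2c* (0.55 and 0.51). Of 346 ubiquitin ligase and deubiquitinase genes 26 were lower and 11 higher in BPH/2J, and 50 were lower and 50 higher in BPN/3J. The balance turned with the scaling, with 61 lower and 36 higher in BPN/3J under quantile normalization, 24 and 66 under median centring, and 29 and 23 without BPN/3J ‘trough’ mouse 1. In BPH/2J it was 13 and 8 under median centring.

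Lipid genes numbered 4 and were *Fasn*, the fatty acid synthase (0.59 and 0.57), the lipoprotein receptor *Scarb1* (0.57 and 0.76), *Agpat2* (0.51 and 0.68) and *Cyp11a1*, which opens steroid synthesis (0.65 and 0.54). Of the 10 members outside these groups, *Pacs2*, a sorting protein between the endoplasmic reticulum and mitochondria, measured 10.22, 10.15 and 10.21 at ‘trough’ and 9.11 to 9.43 (median 9.25) at ‘peak’ in BPH/2J, and 9.93, 10.31 and 9.92 at ‘trough’ and 9.14 to 9.62 (median 9.36) at ‘peak’ in BPN/3J. *Spdye4b*, dim, measured 4.51, 4.13 and 4.35 at ‘trough’ and 3.63 to 3.99 (median 3.81) at ‘peak’ in BPH/2J, and 4.86, 4.59 and 4.25 at ‘trough’ and 3.27 to 3.89 (median 3.70) at ‘peak’ in BPN/3J. The others were *Tmem132b*, described with the strain tests, and *Fam102a* (0.71 and 0.57), *Tmem217* (0.41 and 0.84), *Ankrd13b* (0.60 and 0.57), *Fam222b* (0.48 and 0.59), *Atg2a* of autophagy (0.59 and 0.47), *Mfhas1* (0.53 and 0.53) and *Ttc9b* (0.52 and 0.53). Predicted genes numbered 6 and are not described singly, except that *Gm7982* had the largest mean fall of all, 1.55, with falls of 1.01 and 2.09.

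The 5 microRNA genes were all dim, with a median fall of 0.70 in BPH/2J and 1.01 in BPN/3J. *Mir301b* measured 5.65, 5.23 and 5.25 at ‘trough’ and 4.08 to 4.68 (median 4.32) at ‘peak’ in BPH/2J, and 6.70, 5.55 and 5.35 at ‘trough’ and 4.29 to 4.97 (median 4.55) at ‘peak’ in BPN/3J. In BPN/3J its ‘trough’ mouse 1 was more than 1 unit above the others. *Mir200c* measured 6.07, 5.80 and 5.52 at ‘trough’ and 4.48 to 5.45 (median 4.91) at ‘peak’ in BPH/2J, and 6.85, 6.0 and 5.63 at ‘trough’ and 4.84 to 5.31 (median 5.18) at ‘peak’ in BPN/3J, and its neighbour *Mir141*, the hairpin printed with it, measured 4.80, 4.32 and 4.31 at ‘trough’ and 3.64 to 4.17 (median 3.88) at ‘peak’ in BPH/2J, and 4.93, 4.71 and 4.05 at ‘trough’ and 3.57 to 4.0 (median 3.95) at ‘peak’ in BPN/3J. In both the BPN/3J ‘trough’ mouse 1 was the highest of its group. *Mir17*, of a cluster known for its part in cell division, measured 4.97, 4.33 and 4.67 at ‘trough’ and 3.63 to 4.09 (median 4.01) at ‘peak’ in BPH/2J, and 5.99, 4.99 and 4.69 at ‘trough’ and 3.61 to 4.68 (median 4.19) at ‘peak’ in BPN/3J. *Mir150* measured 7.36, 7.22 and 6.86 at ‘trough’ and 6.22 to 6.83 (median 6.40) at ‘peak’ in BPH/2J, and 7.55, 7.18 and 6.92 at ‘trough’ and 6.11 to 6.66 (median 6.39) at ‘peak’ in BPN/3J. All 5 had a larger fall in BPN/3J, but without its ‘trough’ mouse 1 only 1 of 5 did, with medians of 0.70 in BPH/2J and 0.67 in BPN/3J. Of 300 microRNA genes on the array 6 were lower and 1 higher in BPH/2J, and 65 were lower and 13 higher in BPN/3J, or 19 and 4 without that mouse and 49 and 23 under median centring. The 5 members are thus a small part of the microRNA genes measured.

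Olfactory receptors, which nasal sensory neurons use to detect odours, gave 7 members, all dim. *Olfr1411* measured 5.55, 5.47 and 5.28 at ‘trough’ and 4.94 to 5.20 (median 5.05) at ‘peak’ in BPH/2J, and 6.49, 6.0 and 5.65 at ‘trough’ and 4.69 to 5.11 (median 4.95) at ‘peak’ in BPN/3J, and its neighbour *Olfr1410* measured 6.35, 6.12 and 6.01 at ‘trough’ and 5.53 to 5.80 (median 5.72) at ‘peak’ in BPH/2J, and 7.54, 6.23 and 6.04 at ‘trough’ and 5.52 to 5.89 (median 5.74) at ‘peak’ in BPN/3J. No other gene of the reference lies between this pair. *Olfr1393* measured 6.62, 6.08 and 6.05 at ‘trough’ and 5.31 to 6.0 (median 5.55) at ‘peak’ in BPH/2J, and 6.83, 6.08 and 6.12 at ‘trough’ and 4.81 to 5.85 (median 5.49) at ‘peak’ in BPN/3J. In BPH/2J all 3 had falls below those of BPN/3J. *Olfr1148* measured 5.68, 5.64 and 5.46 at ‘trough’ and 4.53 to 5.45 (median 5.22) at ‘peak’ in BPH/2J, and 5.92, 6.17 and 5.66 at ‘trough’ and 4.80 to 5.43 (median 5.0) at ‘peak’ in BPN/3J. *Olfr765* measured 5.31, 5.43 and 5.18 at ‘trough’ and 4.63 to 5.04 (median 4.91) at ‘peak’ in BPH/2J, and 6.25, 5.91 and 5.36 at ‘trough’ and 4.88 to 5.30 (median 5.02) at ‘peak’ in BPN/3J. *Olfr330* had the smallest fall of any member in BPH/2J, 0.22, and measured 5.52, 5.74 and 5.55 at ‘trough’ and 5.10 to 5.49 (median 5.44) at ‘peak’ in BPH/2J, and 6.45, 5.77 and 5.71 at ‘trough’ and 4.55 to 5.67 (median 5.07) at ‘peak’ in BPN/3J. For these 3 receptors the closest ‘trough’ and ‘peak’ mice of at least 1 strain were under 0.1 apart. *Olfr522* measured 5.95, 5.90 and 5.92 at ‘trough’ and 5.19 to 5.61 (median 5.42) at ‘peak’ in BPH/2J, and 6.73, 5.96 and 5.91 at ‘trough’ and 5.34 to 5.79 (median 5.71) at ‘peak’ in BPN/3J. The fall was larger in BPN/3J for 7 of 7, and for 5 of 7 without its ‘trough’ mouse 1. Of 1027 olfactory receptor genes 7 were lower and 2 higher in BPH/2J, and 216 were lower and 2 higher in BPN/3J, or 35 and 0 without that mouse. Under median centring 1 was lower and 2 higher in BPH/2J. In BPN/3J fewer were then lower than with the values as deposited, but still far more than the 11 that were higher. The median difference in BPN/3J was -0.10 under median centring and -0.20 with the values as deposited. Under quantile normalization 8 were lower and 2 higher in BPH/2J, and 217 were lower and 3 higher in BPN/3J.

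Genes known from hair gave 3 dim members, with a median fall of 0.82 in BPH/2J and 1.18 in BPN/3J. *Krtap5-2*, a keratin-associated protein, measured 6.43, 6.14 and 6.14 at ‘trough’ and 4.86 to 5.96 (median 5.36) at ‘peak’ in BPH/2J, and 7.80, 6.41 and 6.03 at ‘trough’ and 4.83 to 5.87 (median 5.17) at ‘peak’ in BPN/3J. *Krtap5-4* measured 6.86, 6.36 and 6.56 at ‘trough’ and 5.43 to 6.26 (median 5.74) at ‘peak’ in BPH/2J, and 7.80, 6.83 and 6.28 at ‘trough’ and 5.33 to 6.07 (median 5.88) at ‘peak’ in BPN/3J. The hair keratin gene *Krt86* measured 4.71, 4.39 and 4.22 at ‘trough’ and 3.62 to 4.09 (median 3.97) at ‘peak’ in BPH/2J, and 5.33, 4.89 and 4.44 at ‘trough’ and 3.69 to 4.31 (median 3.86) at ‘peak’ in BPN/3J. In all 3 the BPN/3J ‘trough’ mouse 1 was the highest of the 18 mice, and without it the median fall in BPN/3J was 0.77. The 5 immune and secreted members were dim as well, and all had the larger fall in BPN/3J, or 3 of 5 without that mouse. *Ccl20*, a chemokine, measured 5.38, 5.37 and 5.22 at ‘trough’ and 4.69 to 5.14 (median 4.93) at ‘peak’ in BPH/2J, and 6.13, 5.83 and 5.24 at ‘trough’ and 4.64 to 5.21 (median 5.04) at ‘peak’ in BPN/3J. The others were the short-chain fatty acid receptor *Ffar3* (0.57 and 0.71), *Ly6g6g* (0.52 and 0.75), *Serpina10* (0.43 and 0.63) and *Leap2*, an antagonist of the ghrelin receptor (0.47 and 0.57). Of 10 lymphocyte markers 0 passed in BPH/2J, and 3 were lower and 0 higher in BPN/3J (median -0.35), or 0 without that mouse. Their mean level in BPN/3J was 5.24 to 5.56 at ‘trough’ and 4.98 to 5.21 at ‘peak’, which did not overlap, and in BPH/2J it was 5.20 to 5.32 and 4.93 to 5.31, which did. The part of such cells in these members was not tested.

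Lists of genes with no member were counted too. Of 14 core clock genes 0 were lower in either strain, and 2 were higher in BPN/3J, and of 14 clock output genes 0 were lower and 3 higher in BPN/3J. Hypothalamic neuropeptides (38 genes) had 0 lower and 2 higher in BPH/2J, and 3 lower and 3 higher in BPN/3J. Without BPN/3J ‘trough’ mouse 1 the BPN/3J counts were 0 lower and 1 higher for the core clock and for clock output, and 1 lower and 0 higher for the neuropeptides, and 1 core clock gene was lower in BPH/2J. Under quantile normalization 2 core clock genes were lower in BPH/2J and 1 in BPN/3J. Of 89 genes of oxidative phosphorylation 0 were lower and 30 higher in BPH/2J, and 1 was lower and 40 higher in BPN/3J. Of 39 proteasome genes 0 were lower and 16 higher in BPH/2J, and 1 was lower and 18 higher in BPN/3J.

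Whether the members also differed between the strains at a given time was tested in limma, a contrast that the choice of members did not use. At ‘peak’ 2 of the 150 members (1.33%) were higher in BPH/2J, beside 0.616% of all probesets, and 0 were lower, beside 0.713%. At ‘trough’ 2 were higher, beside 0.342%, and 0 lower, beside 0.187%. These counts rest on 2 genes, so they are not a result about the members as a set. At an unadjusted p under 0.05 there were 10 members at ‘peak’ (6.67%, beside 9.93% of all probesets) and 15 at ‘trough’ (10%, beside 10.4%). The 2 genes were *Tmem132b* and *Arhgef10* at both times.

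*Tmem132b* measured 9.91, 9.93 and 9.84 at ‘trough’ and 8.92 to 9.58 (median 9.22) at ‘peak’ in BPH/2J, and 8.61, 9.13 and 9.16 at ‘trough’ and 8.22 to 8.45 (median 8.36) at ‘peak’ in BPN/3J. It was higher in BPH/2J by 0.90 ± 0.11 (SE, limma adjusted p = 0.000103) at ‘peak’ and by 0.93 ± 0.16 (limma adjusted p = 0.00748) at ‘trough’. The strains did not overlap at either time. At 2 other probesets of *Tmem132b* the strain difference at ‘peak’ was 0.23 (limma adjusted p = 0.469) and 0.18 (limma adjusted p = 0.712), and at ‘trough’ 0.19 (limma adjusted p = 0.656) and 0.38 (limma adjusted p = 0.455), so 1 of 3 probesets of the gene passed. Those 2 were lower at ‘peak’ in both strains, with falls of 0.42 and 0.46 in 1 and of 0.60 and 0.39 in the other. *Arhgef10* was higher in BPH/2J by 0.66 ± 0.10 (SE, limma adjusted p = 0.000789) at ‘peak’ and by 0.90 ± 0.14 (limma adjusted p = 0.00325) at ‘trough’, again with no overlap between the strains. The 95% intervals at ‘peak’ were 0.67 to 1.13 for *Tmem132b* and 0.45 to 0.87 for *Arhgef10*. Neither gene passed at ‘trough’ in a fit of the 6 ‘trough’ mice alone, nor at either time with the mouse number as a block, although the differences stayed between 0.76 and 1.00, and with array weights 25 members passed at ‘trough’ (7 higher and 18 lower).

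**Figure D4:**
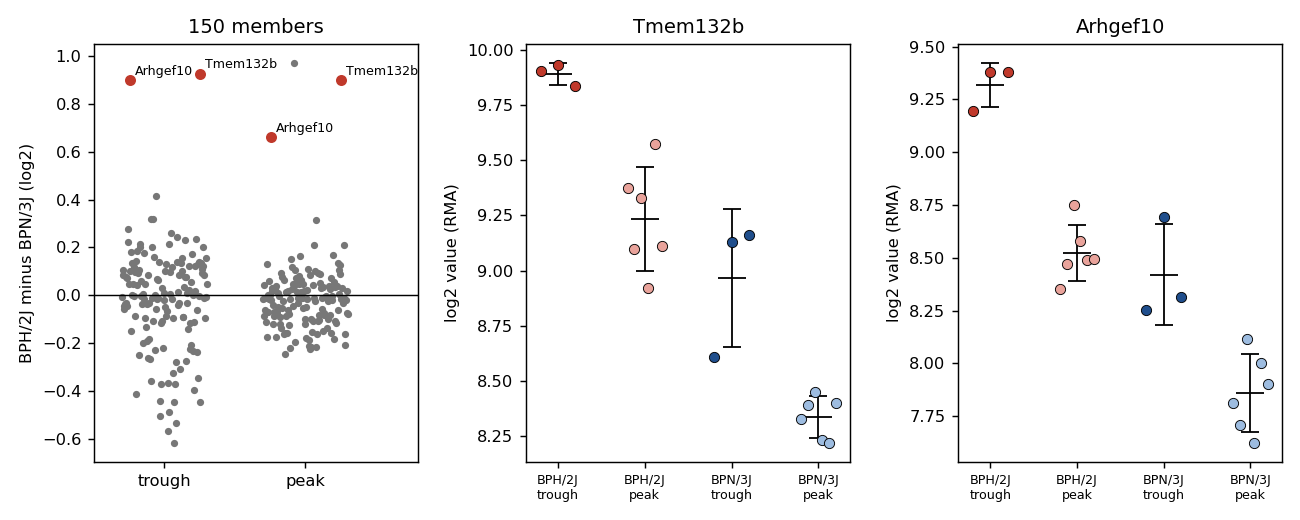
Left, difference between BPH/2J and BPN/3J (log2) of the 150 members at ‘trough’ and at ‘peak’, 1 point per member, with Tmem132b and Arhgef10 in red. Middle and right, log2 values of these genes in every mouse of the 4 groups, with the mean and SD as black bars and the strains apart at both times.

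The other 148 members did not pass at either time, which does not show that the strains were alike. Their differences at ‘peak’ ran from -0.24 (*Epas1*) to 0.97 (*Gm7982*), with 146 of 148 within 0.3 and a smallest limma adjusted p of 0.221. At ‘trough’ they ran from -0.62 (*Olfr1411*) to 0.41 (*Inpp5j*), with 128 of 148 within 0.3 and a smallest limma adjusted p of 0.148. The median half-width of the 95% interval was 0.21 at ‘peak’ and 0.29 at ‘trough’. The strains did not overlap in 2 members at ‘peak’, beside 1.57% of all probesets, and in 17 members at ‘trough’ (10 higher and 7 lower in BPH/2J), beside 19.9% of all probesets.

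Other probesets of the same genes gave a reading that the choice did not use, although in the same mice. Of the member genes 17 had 51 further probesets, of which 35 (68.6%) had a lower mean at ‘peak’ in both strains, beside 42.6% of all probesets with 1 symbol. Their falls had a median of 0.31 in BPH/2J and of 0.26 in BPN/3J. *Dock6*, *Nup210l*, *Unc13c* and *Gm7982* gave 14, 8, 6 and 6 of the 51, and probesets of 1 gene are not independent readings. The shares are therefore a description and not a test. All 4 further probesets of *Arfgef2* were lower, with falls from 0.46 to 0.60 in BPH/2J and from 0.26 to 0.38 in BPN/3J, as were 5 of 6 of *Unc13c* and 10 of 14 of *Dock6*. The third probeset of *Piezo1* had falls of 0.24 and 0.31. Only 2 of 8 further probesets of *Nup210l* were lower in both strains. For *Gm7982*, the member with the largest mean fall, 4 of 6 were. Its further probesets had falls from -0.59 to 1.41 in BPH/2J and from -0.61 to 0.89 in BPN/3J. The single further probesets of *Sinhcaf* (falls of 0.13 and -0.17), *Fam222b* (0.15 and -0.07) and *Myh9* (-0.27 and -0.09) were not. In these genes the fall belonged to 1 probeset.

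A further description left out 1 mouse, chose 150 probesets from the other 17 and read them in the mouse left out. The share that lay on the side of its own group (a ‘trough’ mouse above, or a ‘peak’ mouse below, all mice of the other time and its strain) ran from 74.7% in the BPN/3J ‘trough’ mice 1 and 4 to 100% in BPH/2J ‘trough’ mouse 1 and ‘peak’ mice 5 and 7. For all probesets with 1 symbol this share was 19.4 to 43.0%. The choice used the same contrast in the other mice, while all probesets include those that rose or did not move. A higher share thus follows in large part from the choice, and it is not a test of the members. Of each such choice 108 to 146 were also among the 150 members. The lowest ‘trough’ value in BPN/3J was that of mouse 1 for 90 members, of mouse 4 for 52 and of mouse 3 for 8, and in BPH/2J that of mouse 2 for 71, of mouse 1 for 45 and of mouse 3 for 34.

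The bright members were long genes. By the RefSeq gene table their median genomic length was 48.7 kb, beside 27.0 kb for all bright probesets, and 98 of 101 (97.0%) were longer than 10 kb, beside 76.9%. The dim members had a median of 12.53 kb, beside 12.02 kb for all dim probesets. Among bright probesets that were not members, the median difference between ‘peak’ and ‘trough’ in BPH/2J went from 0.13 in the shortest to -0.13 in the longest of 5 equal groups by gene length. In BPN/3J it went from 0.12 to 0.06, or from 0.09 to -0.02 without its ‘trough’ mouse 1. Under quantile normalization the difference went from 0.11 to -0.15 in BPH/2J and from 0.04 to -0.04 in BPN/3J, and under median centring from 0.19 to -0.07 and from 0.22 to 0.16. Among these bright probesets, with the members taken out, the share that met the condition was 1.59% in the shortest group. It was 3.36% in the longest group and from 3.645 to 4.53% in the groups between. Length is given as a description, and its part in the falls was not tested.

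**Figure D5:**
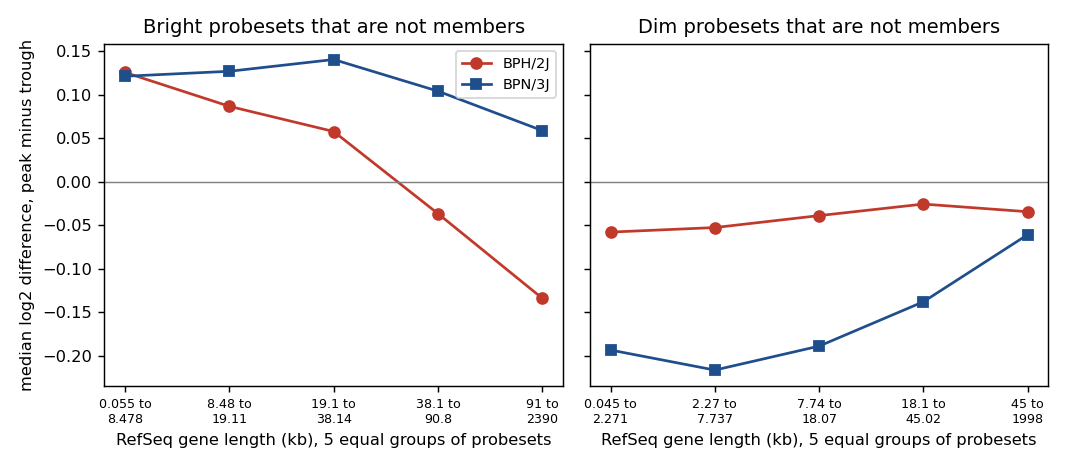
Median difference between ‘peak’ and ‘trough’ (log2, vertical) of probesets that are not members, in 5 equal groups by RefSeq gene length (kb, horizontal), for bright probesets on the left and dim probesets on the right, in BPH/2J (circles) and BPN/3J (squares). In BPH/2J the bright probesets go from 0.13 for the shortest genes to -0.13 for the longest, and the dim ones stay between -0.06 and -0.03.

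Signal also set how often the condition was met, from 0.739% of the dimmest of 5 equal groups of probesets to 4.85% of the brightest, and these groups held 11, 27, 16, 48 and 48 members from dim to bright. In the order of genes in RefSeq, 7 pairs of members had at most 3 genes between them. Beside *Mir141* with *Mir200c* and *Olfr1411* with *Olfr1410*, they were *Ankrd13b* with *Git1* (0 genes between), *Arhgap23* with *Srcin1* (1), *Col1a1* with *Ppp1r9b* (2), *Panx2* with *Tubgcp6* (3) and *Mir200c* with *Atn1* (3). The other members lay apart from each other.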

How the data were processed

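Hypothalamic RNA of 18 male mice was measured on Affymetrix Mouse Gene 1.0 ST arrays. Per the labels, the authors used RMA and limma, whose versions the sources used here do not give. The deposited log2 values were taken without further scaling, and 0 values were missing among 34760 probesets. Platform annotation gave 1 gene symbol for 21640 (19937 genes), several for 1321 and none here for 11799, and genes were counted by their brightest probeset.

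The members, the 45 gene lists and the tests were chosen with earlier results of these data known, and the roles were grouped after the symbols and values had been seen. Any member with an assigned gene name could be named. Values by mouse are given for the 20 with the largest mean fall that are neither predicted nor small RNA genes, for members of a list, and for up to 8 per direction that passed a strain test, which came to 44. Lists were written by gene or by the start of a symbol.

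The strains were compared at each time in limma 3.58.1 (R 4.3.3), in 1 model of the 4 groups with 14 residual and 2.94 prior degrees of freedom and Benjamini-Hochberg adjustment over all probesets at 0.05. The fit was tested on simulated data drawn with the measured spread, where 91.5% of 200 probesets changed by 1.0 were recovered in the comparison at ‘peak’ and 70% in that at ‘trough’, and 45% and 5.5% at 0.5. Replicates are separate mice. Mice of the strains with the same number had residual correlations from -0.30 to 0.19. Mice with unlike numbers were not compared in this way, so the values cannot decide whether the numbers pair the mice. The main fit treated all mice as unpaired.

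MicroRNA sequences and gene lengths came from RefSeq tables. A table of promoter sequences held 113 of the 150 members (75.3%), too few for a check of promoters, so none was made. Alternatives were quantile normalization, median centring, removal of probesets below a signal of 5.64 (percentile 40), 1 probeset per gene, exclusion of symbols after ranking, array weights, a robust prior with a trend, a block for the mouse number, separate fits of 2 groups, and leaving out each mouse. The falls by group, list counts and groups by length under other scalings and without BPN/3J ‘trough’ mouse 1 were added after the data were seen. Plots used matplotlib 3.10.9 under Python 3.11.15.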

Additional observations from a re-analysis of the deposited data

Results flagged for a closer look

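Among the 92 groups of 6 mice looked at (the 44 members given by mouse and further summaries of the members, at ‘peak’), 4 held a mouse far from the others, its gap to the nearest mouse being over 0.625 of the range of its group. Chance flags about 1 in 20 groups. *Mir17* was at 3.63 in BPH/2J ‘peak’ mouse 5, the lowest of its group. *Sp140* was at 4.49 in BPN/3J ‘peak’ mouse 11, where the group reached 6.17. *Krt86* was at 4.31 in the same mouse, the highest of its group, and *Col1a1* at 7.59 in BPN/3J ‘peak’ mouse 7, also the highest.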

How the results depend on the processing

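The number of probesets that met the condition moved from 655 to 1022 under quantile normalization and to 297 under median centring, and it ran from 660 to 1192 when 1 mouse was left out, with 1192 without BPN/3J ‘trough’ mouse 1. Of the 150 members 119 were chosen again under quantile normalization, 107 under median centring, 128 without dim probesets, 138 with 1 probeset per gene, 147 with the symbols excluded after ranking, and 108 to 146 without 1 mouse. The median fall in BPN/3J was 0.67 under quantile normalization and 0.49 under median centring, and 0.54 to 0.63 without 1 mouse, while that in BPH/2J ran from 0.60 to 0.63 without 1 mouse. The count of members that differed between the strains at ‘peak’ was 2 without any 1 mouse (range 2 to 2) and 0 with the mouse number as a replicate block, a fit that used only 12 arrays. At ‘trough’ it was 25 with array weights, 0 in a fit of 2 groups only, 0 with the replicate block, and 1 to 4 without 1 mouse, with 1 without BPH/2J ‘trough’ mouse 2, where *Tmem132b* no longer passed, and 4 without BPN/3J ‘trough’ mouse 4, where *Olfr1411* and *Olfr765* passed as well. With the block *Arhgef10* differed by 0.76 at ‘peak’ and 0.82 at ‘trough’, and *Tmem132b* by 0.88 and 1.00. The fits of fewer arrays have fewer degrees of freedom. The cause of the changes was not tested, in these fits or in the others. With 3 ‘trough’ mice per strain, the lowest of 3 values decides membership, and signals near background have no tested floor here.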
